A study of Homo sapiens with 10 samples.

Results

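The translation initiation factor genes were followed in MIA PaCa-2, an established human cell line from pancreatic ductal adenocarcinoma. Members were all genes of the deposited table whose symbol begins with EIF, without the EIF2AK kinases, which gave 51 of 16734 genes. They were grouped by the factor in the symbol into 4 eIF1, 6 eIF2, 5 eIF2B, 14 eIF3, 16 eIF4 and 5 eIF5 genes, with EIF6 on its own. HPC cells received 10 µM hydroxyprogesterone caproate (HPC), a synthetic progestin ester, for 24 h, and DMSO cells received the solvent in equal volume for the same 24 h. Each group had 5 libraries of poly(A) RNA, and both groups were the same unmodified line in the same serum-containing medium. Replicates are called biological in the labels, with neither culture day nor batch stated, and p-values here reflect only how far these libraries scatter.

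Initiation brings a ribosome to the start codon of an mRNA. eIF2 carries the initiator tRNA to the small ribosomal subunit and is recharged with GTP by eIF2B, eIF3 and eIF1 with eIF1A hold the subunit open for scanning, eIF4F (the cap-binding eIF4E, the scaffold eIF4G and the helicase eIF4A) recruits the mRNA, and eIF5 with eIF5B ends the search and lets the large subunit join. The 4E-binding proteins occupy the eIF4G site of eIF4E when the kinase mTOR does not phosphorylate them, and many mRNAs of the translation machinery begin with a C followed by pyrimidines, a feature through which mTOR is known to act on their translation.

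The first set of sequences shows the RNA starts of the tested members that begin with such a run, because these genes and the rest of the family are set side by side further on. Each line gives 10 bases before and 20 bases from the annotated start, read 5′ to 3′ on the gene's strand from the RefSeq promoter table (GRCh38.p14), with the unbroken run of pyrimidines from the start in capitals.
EIF2A (chr3:150546777-150546806, plus strand): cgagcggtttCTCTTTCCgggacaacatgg
EIF2D (chr1:206612446-206612475, minus strand): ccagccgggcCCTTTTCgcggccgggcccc
EIF2S3 (chrX:24054946-24054975, plus strand): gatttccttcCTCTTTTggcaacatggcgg
EIF3D (chr22:36529147-36529176, minus strand): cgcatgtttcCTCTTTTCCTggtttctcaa
EIF3F (chr11:7987327-7987356, plus strand): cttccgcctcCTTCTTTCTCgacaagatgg
EIF3K (chr19:38619178-38619207, plus strand): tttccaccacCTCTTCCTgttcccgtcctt
EIF3M (chr11:32583821-32583850, plus strand): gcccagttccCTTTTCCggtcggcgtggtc
EIF4A2 (chr3:186783567-186783596, plus strand): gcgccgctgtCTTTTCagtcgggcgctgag
EIF4B (chr12:53006446-53006475, plus strand): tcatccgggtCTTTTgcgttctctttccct

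The same window is given for 3 genes with large increases and for the cap-binding protein gene, none of which began with a C and 4 pyrimidines at the start shown.
EIF1 (chr17:41688875-41688904, plus strand): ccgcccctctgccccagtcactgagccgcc
EIF1B (chr3:40309697-40309726, plus strand): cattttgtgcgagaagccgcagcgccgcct
EIF5 (chr14:103334227-103334256, plus strand): ggcgttgttcagtcagagcgagaacattcc
EIF4E (chr4:98929114-98929143, minus strand): tggagcggttgtgcgatcagatcgatctaa

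Reads recovered from the deposited FPKM (fragments per kilobase of exon and per library size) summed to between 65851176 and 82218527 per library. FPKM gives a gene's share of a library and not its amount per cell. On log2 values the correlation between libraries was 0.989 to 0.994 within groups and 0.842 to 0.863 between them, and 87.7% of the 9150 genes tested differed between HPC and DMSO. The 13 mitochondrially encoded genes made up 13.8% to 15.9% of the summed FPKM in HPC and 21.9% to 23.8% in DMSO. The 6 epithelial markers summed to 213 to 229 FPKM in HPC and 182 to 199 FPKM in DMSO, but not all in one direction. KRT8 (55.2 to 61.4 FPKM in HPC, 50 to 53 in DMSO) and KRT18 (148 to 156 in HPC, 109 to 119 in DMSO) were higher in HPC. KRT19 (8.71 to 11.2 in HPC, 22.2 to 26.6 in DMSO) and KRT7 (0.00366 to 0.0663 in HPC, 0.177 to 0.264 in DMSO) were lower, EPCAM and CDH1 were at or near 0 in every library, and the mesenchymal marker VIM lay at 322 to 346 FPKM in HPC and 682 to 718 FPKM in DMSO. PTPRC, DCN, LUM and PECAM1, which define leukocytes, fibroblasts and endothelium, were at or near 0. The listed leukocyte markers, 3 of 4 in the table, nevertheless summed to 8.35 to 10.9 FPKM in HPC and 2.87 to 3.81 in DMSO, mostly CD68. All 4 fibroblast markers summed to 0.714 to 0.975 FPKM in HPC and 24.5 to 26.7 in DMSO, mostly COL1A2, and all 3 endothelial markers to 0.0152 to 0.0368 FPKM in HPC and 1.43 to 1.53 in DMSO, mostly CDH5. Their part in the results was not tested.

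Most initiation factor genes differed between HPC and DMSO cells, in both directions and by unequal amounts, as did most of all tested genes. The test was made for the 46 members that reached 1 FPKM or more in 5 or more libraries. Of these, 41 passed at an adjusted p of 0.05 (limma, Benjamini-Hochberg over all tested genes), or 89.1%, beside 87.7% of all tested genes. HPC was higher for 24 members (background 42.9% of genes) and lower for 17 (background 44.8%). The 5 that did not pass were EIF2D, EIF3C, EIF3CL, EIF4G1 and EIF4H. The share of members called in either direction was thus near that of the whole table. The share higher lay above its background and the share lower below it, and neither difference was tested. The median absolute log2 change was 0.40 for members and 0.43 for all tested genes. A change of at least 1.5-fold was reached by 9 members upward (background 16.9%) and 6 downward (background 20.3%). The upward members include EIF4EBP3, which passed the filter on the HPC libraries but not on the DMSO libraries alone. The HPC and DMSO libraries did not overlap for 41 of 46 members, with 79.6% of all tested genes as the background. The median log2 change was 0.12 over the members and -0.01 over all tested genes.

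With each library scaled to its non-mitochondrial sum instead, the median of all genes moved to -0.18 and that of the members to -0.05. The distance between these medians was 0.13 under both scalings. Under that scaling 20 members were higher and 22 lower, with 32.3% and 54.8% of all tested genes as the background, and the lower share among all called genes was 62.9%, against 51.1% as deposited. The shift was similar for large and small changes, with EIF1 going from 1.87 to 1.71 and EIF2S1 from 0.38 to 0.22. Small changes therefore altered most only relative to their own size. Among genes whose call and direction held, this scaling gave 0.23 for EIF1AD, 0.24 for EIF2B3 and EIF2B4, 0.22 for EIF2S1, 0.21 for EIF3G and EIF6, 0.26 for EIF3I and 0.16 for EIF4G3, all smaller than as deposited by over 1.5 times. It gave -0.35 for EIF3H, -0.32 for EIF3K, -0.45 for EIF3L, -0.37 for EIF4A1, -0.30 for EIF5A and -0.31 for EIF5B, all larger in size by over 1.5 times. Quantile normalization gave 0.26 for EIF3I, -0.26 for EIF5A and -0.22 for EIF5B.

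**Figure D1:**
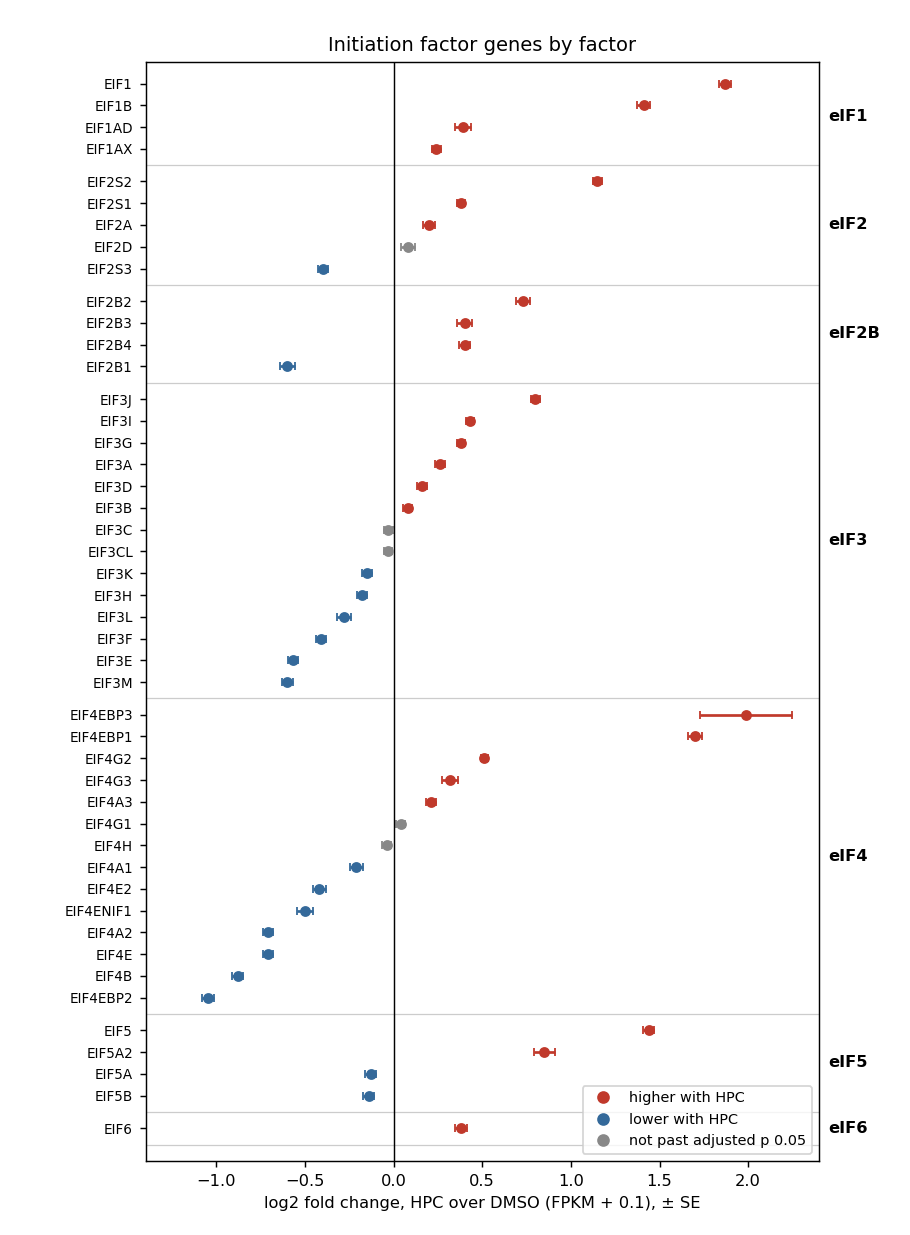
Log2 fold change of HPC over DMSO on the log2(FPKM + 0.1) scale for the 46 tested members, grouped by factor; points are limma estimates from 5 libraries a group and bars their standard errors. EIF4EBP3, EIF1 and EIF4EBP1 lie farthest to the right and EIF4EBP2 farthest to the left. EIF4EBP3 passed the filter on the HPC libraries but not on the DMSO libraries alone.

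The eIF1 genes were all higher in HPC, 4 of 4, with a median log2 change of 0.90, where 42.9% of all tested genes were higher (32.3% under scaling to the non-mitochondrial sum). EIF1 (ENSG00000173812, chr17:41688885-41692668 in GENCODE 29 on GRCh38, plus strand) encodes the protein that guards start codon choice during scanning. It measured 171, 166, 160, 156 and 160 FPKM in HPC, against 45.6, 46.8, 42.1, 44.1 and 42.9 FPKM in DMSO. The groups lay far apart and the spread within each was small. The log2 change was 1.87 ± 0.033 (SE; limma adjusted p = 1.91e-14), a 3.67-fold rise. Its paralogue EIF1B (chr3:40309684-40312424, plus strand) had 19.8, 19.6, 19.5, 18.7 and 19 FPKM in HPC, against 7.81, 7.22, 6.67, 7.34 and 7.16 FPKM in DMSO, without overlap. EIF1B rose by 1.41 ± 0.037 on the log2 scale (SE; limma adjusted p = 5.92e-13). An exon of EIF1B overlaps the antisense gene EIF1B-AS1, and whether strand was used in counting is not given in the sources used here. EIF1AX, the X-linked gene of eIF1A, which works beside eIF1 in the decoding site, rose by 0.24 ± 0.025, and EIF1AD, named for its eIF1A-like domain, by 0.39 ± 0.044 (limma adjusted p = 8.31e-07 and 1.75e-06). The rise of EIF1AX was 0.07 (adjusted p = 0.0149) when libraries were scaled to the non-mitochondrial sum and 0.05 (adjusted p = 0.0342) after quantile normalization.

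Because the deposited FPKM rest on exon lengths summed over all transcripts of a gene, levels of different genes are set side by side only as reads per kilobase of merged exons, scaled to the library's reads, called merged-exon FPKM below. On that scale EIF1 averaged 415 ± 15 in HPC and 113 ± 4.94 in DMSO (SD, n = 5). In HPC this was the highest level of any member, ahead of EIF3I at 234 ± 6.29. In DMSO the highest was EIF2S3 at 195 ± 3.96, close to EIF4H at 191 ± 3.89, whose ranges over libraries overlap with it. The members together, without EIF4E1B, summed to 3275 ± 22.2 merged-exon FPKM in HPC and 2740 ± 34.5 in DMSO. The largest increases in this sum were EIF1, EIF2S2 (184 in HPC, 82.8 in DMSO), EIF4EBP1 (140 in HPC, 42.9 in DMSO) and EIF5 (110 in HPC, 40.2 in DMSO). It does not stand for a general rise, since 17 of the 46 tested members were lower as deposited. The sum was not rescaled to the non-mitochondrial sum.

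**Figure D2:**
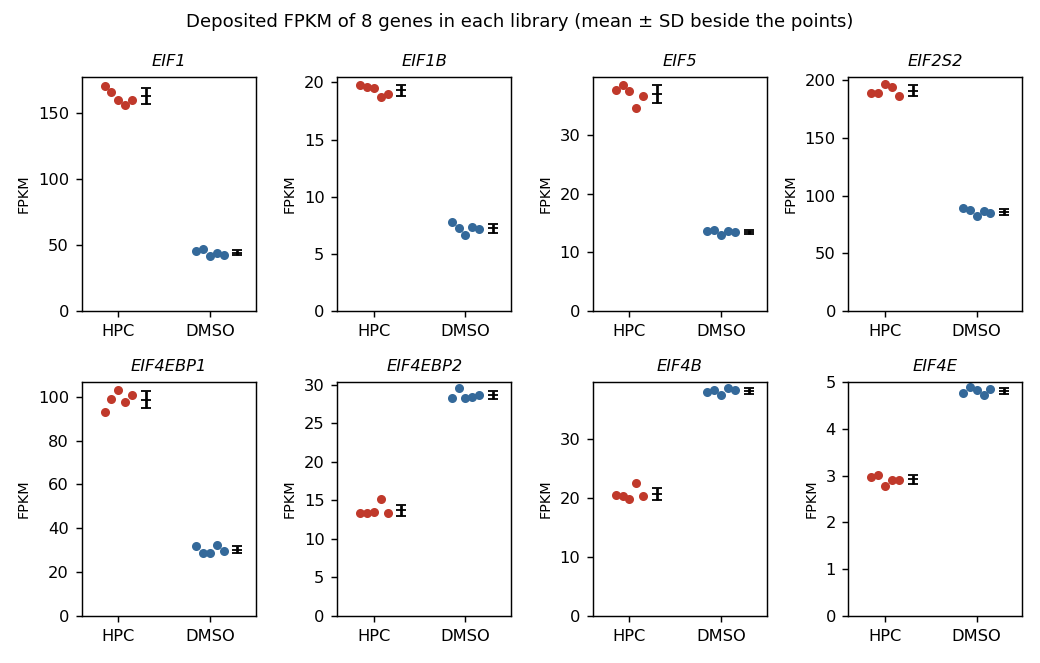
Deposited FPKM of 8 members in each library, HPC left and DMSO right, with mean and SD (n = 5 each) beside the points and every axis starting at 0. EIF1, EIF1B, EIF5, EIF2S2 and EIF4EBP1 are higher in every HPC library, and EIF4EBP2, EIF4B and EIF4E are lower in every HPC library.

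Both EIF1 and EIF1B rose, and their upstream sequences are shown to compare the paralogues. Each gives the 250 bases before the RefSeq start on the plus strand (GRCh38.p14), with the E-box CACGTG in capitals where it occurs.
EIF1 (chr17:41688635-41688884): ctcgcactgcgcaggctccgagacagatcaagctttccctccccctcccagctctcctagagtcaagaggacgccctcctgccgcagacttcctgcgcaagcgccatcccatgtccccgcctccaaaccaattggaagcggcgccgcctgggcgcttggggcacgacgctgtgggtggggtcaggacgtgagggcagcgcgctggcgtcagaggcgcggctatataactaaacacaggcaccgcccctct
EIF1B (chr3:40309457-40309706): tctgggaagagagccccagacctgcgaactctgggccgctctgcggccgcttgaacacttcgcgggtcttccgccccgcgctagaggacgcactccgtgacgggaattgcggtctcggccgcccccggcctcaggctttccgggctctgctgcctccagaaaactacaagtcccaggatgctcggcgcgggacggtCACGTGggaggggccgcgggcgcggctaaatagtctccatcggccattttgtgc
The E-box, a palindrome bound by MYC and related factors, was searched over 250 bases before to 50 after each start. It begins 54 bases before the EIF1B start (offset -54) and was not in the EIF1 window. Among the 43 members with an entry it was in 11 (25.6%), among 7512 tested genes with an entry in 13.1%, and among all 35116 entries in 7.26%. Of the 43 members 38 were tested, including all 11 with the E-box, and the last share counts entries rather than genes. These 11 were EIF1B, EIF2B3, EIF4A3, EIF4EBP3 and EIF5A2, which were higher in HPC, EIF3F, EIF3K, EIF4B and EIF4E, which were lower, and EIF4G1 and EIF4H, which did not pass the test. TGATGCAA, a C/EBP-ATF element of the stress response, was searched on both strands and was in 0 of the 43 member windows, in 0.866% of all entries and in 0.626% of the tested genes. EIF2S2, EIF3A, EIF3CL, EIF3E, EIF3G, EIF3H, EIF3L and EIF4EBP1 had no entry.

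The 3 subunits of eIF2 did not move together. EIF2S2, the beta subunit, which contacts eIF5 and eIF2B, measured 189, 189, 197, 194 and 186 FPKM in HPC, against 89.4, 87.4, 82.1, 86.5 and 84.6 FPKM in DMSO. EIF2S3 (chrX:24054716-24077971, plus strand), the gamma subunit that binds GTP and the tRNA, measured 94.3, 94.6, 95.8, 104 and 97.8 FPKM in HPC, against 131, 130, 124, 129 and 127 FPKM in DMSO. HPC was thus above DMSO in every library for the beta subunit and below it in every library for the gamma subunit. EIF2S2 rose by 1.15 ± 0.026 on the log2 scale (SE; limma adjusted p = 1.39e-13) and EIF2S3 had a log2 change of -0.40 ± 0.027 (adjusted p = 9.45e-09). EIF2S1, the alpha subunit phosphorylated in the integrated stress response, had 22.6, 22.5, 22.1, 22.3 and 22.5 FPKM in HPC, against 17.3, 16.8, 17, 17.6 and 17 FPKM in DMSO. It rose by 0.38 ± 0.021 (limma adjusted p = 9.41e-10), and an exon of it overlaps ATP6V1D on the other strand.

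Within a library the ratio of EIF2S2 to EIF2S3, in merged-exon FPKM, was 1.19 to 1.31 in HPC and 0.42 to 0.435 in DMSO. That of EIF2S1 to EIF2S3 was 0.236 to 0.263 in HPC and 0.141 to 0.151 in DMSO. Both ratios were chosen after the values were seen and carry no test, and neither depends on how libraries are scaled. EIF2A, an alternative carrier of initiator tRNA that is no subunit of eIF2, rose by 0.20 ± 0.035 (limma adjusted p = 0.00013), a change of 0.04 (adjusted p = 0.37) with the non-mitochondrial sum as the scale. The log2 change of EIF2D, which can deliver tRNA without GTP, was 0.08 ± 0.039 (limma adjusted p = 0.0716). Without HPC replicate 3 it was 0.10 (adjusted p = 0.0187), and under scaling to the non-mitochondrial sum -0.09 (adjusted p = 0.0574). EIF2S3B, a copy of EIF2S3 on chromosome 12, had 0.219 to 0.409 FPKM in HPC and 0.403 to 0.678 in DMSO and was not tested, and adding it to EIF2S3 left the log2 ratio of the means at -0.40.

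Subunits of eIF2B, the exchange factor for eIF2, also went both ways. EIF2B2, the beta subunit, measured 4.18, 4.11, 4.28, 3.89 and 4.13 FPKM in HPC, against 2.61, 2.35, 2.37, 2.34 and 2.51 FPKM in DMSO. EIF2B1, the alpha subunit at which phosphorylated eIF2 is sensed, measured 4.84, 4.69, 4.51, 4.44 and 4.49 FPKM in HPC, against 7.12, 7.4, 6.77, 6.39 and 7.32 FPKM in DMSO. Neither gene's groups overlapped. EIF2B2 rose by 0.73 ± 0.039 (SE; limma adjusted p = 7.01e-10), and EIF2B1, whose exons overlap DDX55 and GTF2H3 on the other strand, had a log2 change of -0.60 ± 0.042 (adjusted p = 1.31e-08). EIF2B3 and EIF2B4, the gamma and delta subunits, each rose by 0.40 on the log2 scale. The ratio of EIF2B2 to EIF2B1, chosen after the values were seen, was 0.805 to 0.885 in HPC and 0.296 to 0.342 in DMSO in merged-exon FPKM.

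EIF2B5, the catalytic epsilon subunit, stayed under the filter of 1 FPKM although it held between 3372 and 5163 reads per library. It had 0.698, 0.723, 0.75, 0.681 and 0.729 FPKM in HPC, against 0.863, 0.845, 0.837, 0.818 and 0.909 FPKM in DMSO, without overlap. The length behind its deposited FPKM was 10.4 times its merged exons. In merged-exon FPKM it averaged 7.48 ± 0.282 in HPC and 8.92 ± 0.361 in DMSO (SD, n = 5), passed the same filter, and had a log2 change of -0.25 ± 0.039 (limma adjusted p = 2.66e-05).

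In eIF3, the large scaffold on the small ribosomal subunit, octamer genes were mostly lower and peripheral genes mostly higher in HPC. The genes of the octamer (A, C, E, F, H, K, L and M), the folded core of the complex, were lower in HPC for 6 of 8, higher for EIF3A and not past the test for EIF3C, with a median log2 change of -0.23 (44.8% of all tested genes were lower). The 5 peripheral genes (B, D, G, I and J), which reach towards the mRNA channel, were higher in 5 of 5 with a median of 0.38 (42.9% of all tested genes were higher), except that under scaling to the non-mitochondrial sum EIF3B passed as lower at -0.09 (limma adjusted p = 0.0064) and EIF3D was at -0.00. EIF3B also missed the test after TPM rescaling (log2 change 0.05, limma adjusted p = 0.123) and after quantile normalization (log2 change 0.01, adjusted p = 0.84). EIF3D had a log2 change of 0.08 after quantile normalization. With the non-mitochondrial sum the medians were -0.40 for the octamer and 0.21 for the peripheral genes, beside 54.8% of all tested genes lower and 32.3% higher. Over all tested genes the median was -0.01 as deposited and -0.18 under the other scaling. The modules were taken from the known structure of eIF3, and no test was made of the lists.

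EIF3M, an octamer subunit, measured 17.8, 17.9, 18.6, 19.5 and 18.4 FPKM in HPC, against 28.3, 28.8, 27.2, 28.5 and 27.3 FPKM in DMSO. EIF3J, a loosely bound subunit near the decoding site, measured 25.2, 25.3, 25.6, 24.8 and 25.2 FPKM in HPC, against 15.4, 14, 14.2, 14.5 and 14.1 FPKM in DMSO. These were the members of either module with the greatest change, EIF3M at -0.60 ± 0.029 (SE; limma adjusted p = 2.52e-10) and EIF3J at 0.80 ± 0.028 (adjusted p = 9.95e-12), and neither gene's groups overlapped. On the other strand, exons of EIF3J overlap SPG11, those of EIF3M overlap CCDC73 and those of EIF3A overlap NANOS1. EIF3A, the largest octamer subunit, had 63.1, 60.7, 57.7, 62.2 and 59 FPKM in HPC, against 51.3, 50.9, 49.2, 50.5 and 51.3 FPKM in DMSO. EIF3A was the 1 octamer gene that rose, by 0.26 ± 0.027 (limma adjusted p = 7.13e-07). The rise was 0.09 (adjusted p = 0.00552) when libraries were scaled to the non-mitochondrial sum and 0.06 (adjusted p = 0.0457) after quantile normalization.

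Changes of the other subunit genes were smaller. EIF3E had a log2 change of -0.57, EIF3F of -0.41, EIF3L of -0.28, EIF3H of -0.18 and EIF3K of -0.15, all past the test. Among peripheral genes, EIF3I rose by 0.43 and EIF3G by 0.38, while EIF3D rose by 0.16 and EIF3B by 0.08. EIF3C averaged 18 ± 0.557 FPKM in HPC and 18.4 ± 0.31 FPKM in DMSO (SD, n = 5; limma adjusted p = 0.348), and passed as lower, at a log2 change of -0.19, under scaling to the non-mitochondrial sum. Its near-identical copy EIF3CL could take part of its reads, and the merged-exon FPKM of both together averaged 186 ± 5.27 in HPC and 189 ± 2.83 in DMSO (SD, n = 5). Summed in merged-exon FPKM, without EIF3CL, the octamer genes reached 416 ± 8.16 in HPC and 476 ± 11 in DMSO, and the peripheral genes 456 ± 6.66 in HPC and 350.5 ± 3.05 in DMSO (SD, n = 5). EIF3CL alone averaged 125 ± 3.4 in HPC and 127 ± 1.81 in DMSO. The octamer sum lay below the peripheral sum in HPC only because EIF3CL was left out.

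**Figure D3:**
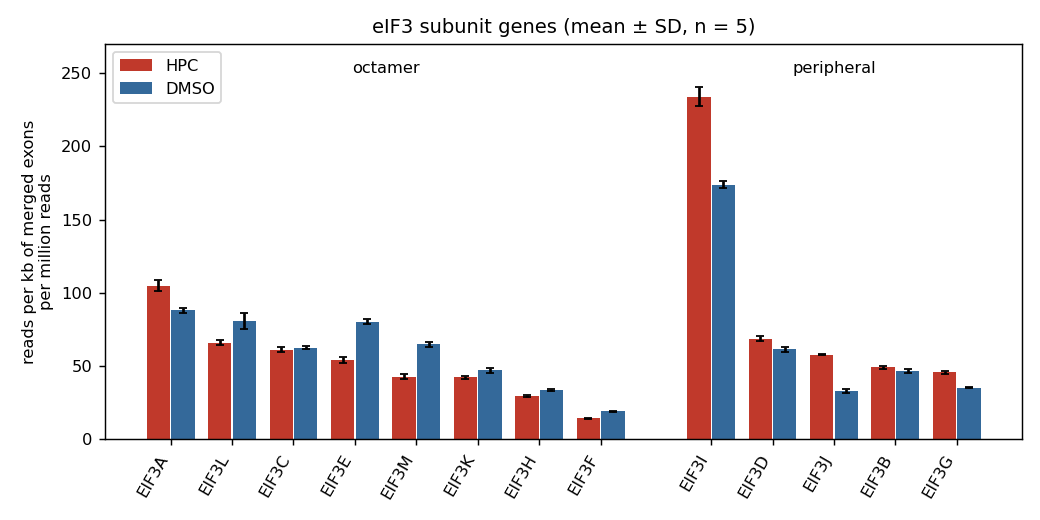
Merged-exon FPKM of the eIF3 subunit genes (reads per kilobase of merged exons, scaled to the library's reads; bars are means and whiskers SD of 5 libraries, HPC left of DMSO in each pair), octamer genes on the left and peripheral genes on the right. EIF3E and EIF3M show the clearest octamer decreases, and EIF3I and EIF3J the clearest peripheral increases.

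Of the 14 eIF4 genes tested, 5 were higher and 7 lower in HPC, beside 42.9% and 44.8% of all tested genes. The genes of the eIF4E inhibitors had large changes in both directions. EIF4EBP1, a 4E-binding protein and substrate of mTOR, measured 92.9, 99, 103, 97.4 and 101 FPKM in HPC, against 31.7, 28.5, 28.9, 32.3 and 29.8 FPKM in DMSO. EIF4EBP2, its paralogue, measured 13.3, 13.4, 13.5, 15.1 and 13.4 FPKM in HPC, against 28.3, 29.5, 28.3, 28.4 and 28.7 FPKM in DMSO. The groups did not overlap for either gene, and the directions were opposite. EIF4EBP1 rose by 1.70 ± 0.039 on the log2 scale (SE; limma adjusted p = 1.76e-13), and EIF4EBP2 had a log2 change of -1.05 ± 0.034 (adjusted p = 3.92e-12). In merged-exon FPKM the ratio of EIF4EBP1 to EIF4EBP2 was 8.89 to 10.5 in HPC and 1.32 to 1.56 in DMSO, a ratio chosen after the values were seen.

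EIF4EBP3, the third paralogue, had 6.84, 6.29, 4.88, 9.01 and 4.82 FPKM in HPC, against 1.15, 2.3, 1.81, 1.51 and 0.987 FPKM in DMSO. All HPC libraries were above all DMSO libraries, and the log2 change was 1.99 ± 0.26 (SE; limma adjusted p = 5.49e-05). This rested on 49 to 412 reads per library, and the gene passed the filter on the HPC libraries but not on the DMSO libraries alone. With a pseudocount of 1 its log2 change was 1.52, below those of EIF1 (1.85) and EIF4EBP1 (1.67). Exons of EIF4EBP3 overlap the readthrough gene ANKHD1-EIF4EBP3, which had 8.86, 9.62, 11, 6.34 and 11.1 FPKM in HPC, against 8.98, 11.2, 8.38, 11.8 and 12.8 FPKM in DMSO, with overlapping groups. How reads in the shared exons were assigned is not given in the sources used here.

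EIF4E, the cap-binding protein itself, had 2.98, 3.01, 2.77, 2.91 and 2.9 FPKM in HPC, against 4.77, 4.9, 4.84, 4.73 and 4.85 FPKM in DMSO. HPC was lower in every library, with a log2 change of -0.71 ± 0.03 (SE; limma adjusted p = 7.38e-11). Exons of EIF4E overlap TBCAP3 on the same strand and AC019131.1 on the other. The ratio of EIF4EBP1 to EIF4E in merged-exon FPKM was 32.1, 33.8, 38.3, 34.5 and 35.7 in HPC, against 6.86, 5.98, 6.15, 7.03 and 6.33 in DMSO. The difference was 2.41 on the log2(FPKM + 0.1) scale, or 5.31-fold (exact two-sided permutation test, p = 0.00794, adjusted over 10 pairs 0.00794), the smallest p that the 252 assignments of 5 and 5 libraries allow. That of EIF4EBP2 to EIF4E differed by -0.35 on the log2 scale, with 3.54 ± 0.23 in HPC and 4.46 ± 0.056 in DMSO (SD, n = 5; the same exact p). Both pairs were chosen with earlier results of these data known. Merged exons span 14067 bases for EIF4E and 1073 for EIF4EBP1. The level of the ratio between these genes rests on such lengths, whereas its change between groups does not.

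Among the other cap-binding genes, EIF4E2, whose protein binds the cap without eIF4G and takes part in repression, had a log2 change of -0.42 ± 0.036 (limma adjusted p = 1.13e-07). EIF4ENIF1, which carries eIF4E into the nucleus and to P-bodies, had one of -0.50 ± 0.046 (adjusted p = 2.17e-07), or -0.31 with a pseudocount of 1. EIF4E3 was not tested and had 0.0249 to 0.0549 FPKM in HPC, against 0.00903 to 0.016 FPKM in DMSO, from 19 to 104 reads per library. EIF4E1B was listed above 0 in 1 HPC library, at 0.004 FPKM, and in 1 DMSO library, at 0.0048 FPKM.

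The eIF4F helicase genes EIF4A1 and EIF4A2 were lower in HPC. Among the eIF4G genes, EIF4G2 and EIF4G3 were higher, while EIF4G1 did not pass the test. EIF4A1, the main helicase, measured 26.3, 24, 24.7, 27.1 and 25.6 FPKM in HPC, against 31.1, 30.3, 30, 27.7 and 28.3 FPKM in DMSO. EIF4A2, its paralogue, which also hosts small nucleolar RNAs, measured 12.2, 11.6, 11, 11.8 and 11.5 FPKM in HPC, against 18.5, 19.5, 18.7, 19.5 and 19 FPKM in DMSO. HPC lay below DMSO in every library for both, narrowly for EIF4A1 and by a wide margin for EIF4A2. The log2 changes were -0.21 ± 0.039 for EIF4A1 (SE; limma adjusted p = 0.000248) and -0.71 ± 0.03 for EIF4A2 (adjusted p = 7.79e-11). EIF4A1 shares exons with the readthrough gene SENP3-EIF4A1, and exons of EIF4A2 overlap RFC4 on the other strand. EIF4B, which stimulates the helicase, had 20.6, 20.3, 19.8, 22.6 and 20.3 FPKM in HPC, against 38, 38.4, 37.5, 38.8 and 38.4 FPKM in DMSO, without overlap. Its log2 change of -0.88 ± 0.032 (limma adjusted p = 1.47e-11) contrasts with EIF4H, a gene of related function at -0.04 ± 0.025 (adjusted p = 0.167), which passed as lower, at -0.21, under scaling to the non-mitochondrial sum. EIF4A3, which belongs to the exon junction complex rather than to initiation, rose by 0.21 ± 0.029 (adjusted p = 1.51e-05), a change of 0.04 under that scaling (adjusted p = 0.172).

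EIF4G1, the main scaffold of eIF4F, had 6.83, 6.87, 6.85, 6.83 and 6.67 FPKM in HPC, against 6.45, 6.49, 6.77, 6.73 and 6.6 FPKM in DMSO. The groups overlapped, and the log2 change was 0.04 ± 0.025 (limma adjusted p = 0.122); it was -0.12 (adjusted p = 0.000603) under scaling to the non-mitochondrial sum. EIF4G2, whose protein DAP5 lacks the eIF4E site, rose by 0.51 ± 0.02 and EIF4G3 by 0.32 ± 0.045 (limma adjusted p = 3.64e-11 and 1.24e-05). Relative to EIF4G1 in the same library, EIF4G2 stood at 1.66 ± 0.034 in HPC and 1.21 ± 0.029 in DMSO, and EIF4G3 at 0.281 ± 0.017 in HPC and 0.23 ± 0.0073 in DMSO, in merged-exon FPKM (SD, n = 5). The level of EIF4G1 itself was 81.9 ± 0.983 merged-exon FPKM in HPC and 79.5 ± 1.7 in DMSO (SD, n = 5), and the length behind its deposited FPKM was 12 times its merged exons.

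Of the 4 eIF5 genes tested, 2 were higher and 2 lower in HPC, beside 42.9% and 44.8% of all tested genes. EIF5, which stimulates GTP hydrolysis by eIF2 and competes with eIF1, measured 37.7, 38.6, 37.5, 34.6 and 36.7 FPKM in HPC, against 13.7, 13.9, 12.9, 13.7 and 13.4 FPKM in DMSO. Every HPC library was above every DMSO library, and EIF5 rose by 1.44 ± 0.031 on the log2 scale (SE; limma adjusted p = 9.9e-14). EIF5A, the hypusine-bearing factor that aids elongation and termination, had 39.2, 39.6, 41.9, 37.3 and 39.3 FPKM in HPC, against 44.7, 42.4, 43.4, 43 and 42.6 FPKM in DMSO. Its log2 change was small, at -0.13 ± 0.03 (limma adjusted p = 0.000954), and an exon of it overlaps GPS2 on the other strand. EIF5A2, its paralogue with restricted expression, had 4.72, 5.43, 4.81, 5.64 and 5.38 FPKM in HPC, against 3.03, 2.79, 2.98, 2.84 and 2.52 FPKM in DMSO. EIF5A2 rose by 0.85 ± 0.059 (limma adjusted p = 1.17e-08), and its ratio to EIF5A was 0.0424 ± 0.0047 in HPC and 0.021 ± 0.0012 in DMSO (merged-exon FPKM; SD, n = 5). EIF5AL1, a copy of EIF5A on chromosome 10, had 0.442 to 0.633 FPKM in HPC and 0.449 to 0.64 in DMSO and was not tested. EIF5B, the GTPase for subunit joining, had a log2 change of -0.14 ± 0.031 (adjusted p = 0.000596).

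EIF6, which keeps the large subunit from joining too early, had 19.3, 19.6, 19.6, 17.5 and 18.7 FPKM in HPC, against 14.6, 15.1, 14.6, 13.7 and 14.7 FPKM in DMSO. It rose by 0.38 ± 0.036 on the log2 scale (SE; limma adjusted p = 2.58e-07), without overlap between the groups. Exons of EIF6 overlap AL121753.1 on the same strand.

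Ratios within a library were taken for 10 pairs of related genes, since apart from the pseudocount they do not depend on how libraries are scaled. Levels are in merged-exon FPKM and tests were made on log2(deposited FPKM + 0.1). All 10 differed between HPC and DMSO with no overlap of groups, each with an exact two-sided permutation p of 0.00794, the smallest possible, and the same value adjusted over the pairs. The pairs were chosen with earlier results of these data known, and no background of other gene pairs was computed. Singly, 79.6% of all tested genes did not overlap, so these p-values add little beyond the single-gene changes. EIF1B to EIF1 was 0.0762 ± 0.0014 in HPC and 0.105 ± 0.0044 in DMSO, since EIF1 rose further than its paralogue. EIF5 to EIF1 was 0.265 ± 0.0067 in HPC and 0.355 ± 0.0083 in DMSO, although both genes rose. EIF4A2 to EIF4A1 was 0.39 ± 0.016 in HPC and 0.554 ± 0.036 in DMSO, a log2 difference of -0.50. EIF4E2 to EIF4E was 1.78 ± 0.07 in HPC and 1.45 ± 0.023 in DMSO. The ratio of EIF4E3 to EIF4E was 0.0272 ± 0.0089 in HPC and 0.00476 ± 0.0011 in DMSO, and its log2 difference of 1.04 rested on few reads and became 2.48 with no pseudocount and 0.61 with a pseudocount of 1.

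**Figure D4:**
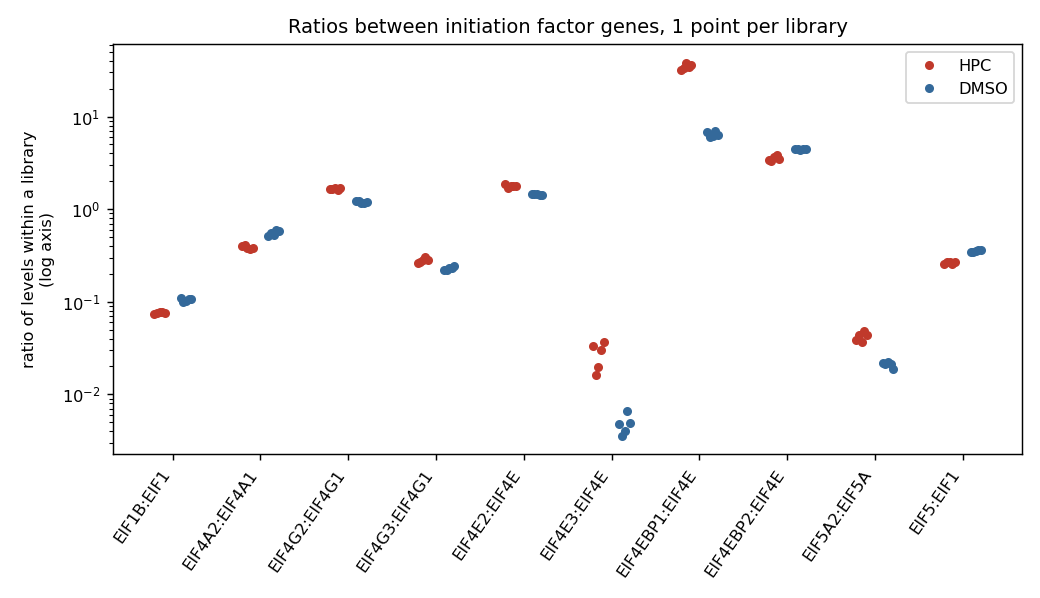
Ratios of merged-exon FPKM between related initiation factor genes, 1 point per library, HPC left of DMSO in each pair, on a log axis. EIF4EBP1:EIF4E and EIF4E3:EIF4E show the widest gaps, and in no pair do the groups overlap.

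The genes whose annotated RNA start carries a C and at least 4 pyrimidines were described beside the others; the feature was chosen after the values were seen, so no test is given. Among 38 tested members with a start sequence, 9 (23.7%) had the run at any of their annotated starts, compared with 581 of 7493 tested genes (7.75%) and 4.07% of all entries. Of these 9, shown at the beginning, 6 were lower in HPC (EIF2S3, EIF3F, EIF3K, EIF3M, EIF4A2 and EIF4B), 2 were higher (EIF2A and EIF3D) and EIF2D did not pass, with a median log2 change of -0.40. The 29 members without the run had 18 higher, 8 lower and 3 that did not pass, with a median of 0.32. Over all tested genes the medians lay closer together. Genes with the run were lower in 52.5% and higher in 35.3%, with a median of -0.10, and genes without it were lower in 44.3% and higher in 43.9%, with a median of -0.00. EIF1, EIF5 and EIF1B, printed beside them, were in the set without the run, as was EIF4E, which fell.

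**Figure D5:**
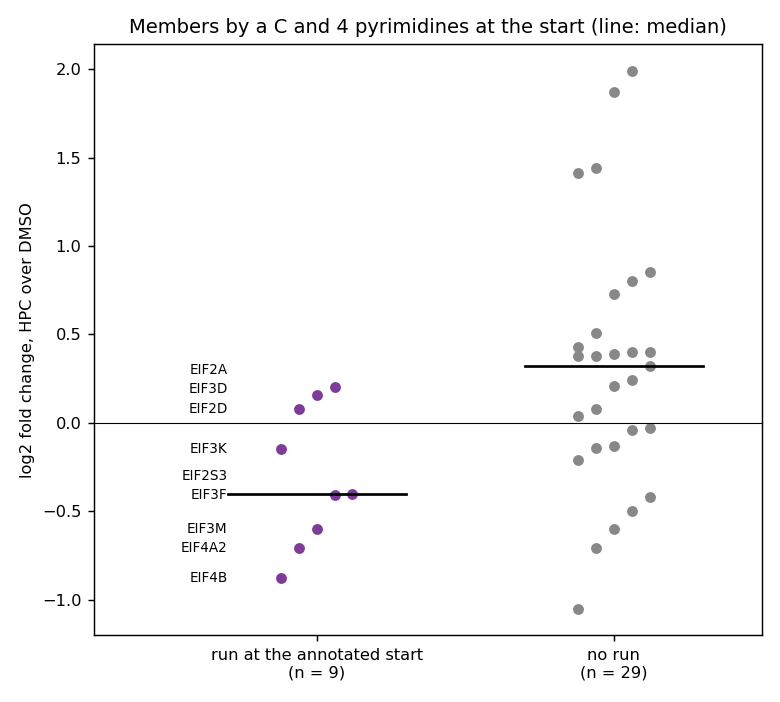
Log2 fold change of HPC over DMSO for 38 tested members with an annotated start sequence, 9 that begin with a C and at least 4 pyrimidines and 29 that do not; lines are medians (-0.40 and 0.32). The named genes with the run lie between -0.88 and 0.20.

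Genes that work beside the initiation factors were counted from lists of 39 genes, of which 35 were tested, with 15 higher in HPC, 17 lower and 3 not past the test, and a median log2 change of -0.06. The share called, 91.4%, was near the 87.7% of all tested genes (42.9% higher, 44.8% lower). Under scaling to the non-mitochondrial sum 8 were higher and 21 lower, with 32.3% and 54.8% of all tested genes as the background. Elongation factors were lower in 6 of 9 and higher in 2, and those past a 1.5-fold change were all lower. EEF2K, the kinase that restrains elongation through eEF2, had 1.35, 1.39, 1.37, 1.27 and 1.24 FPKM in HPC, against 3.78, 3.74, 4.09, 3.85 and 4.15 FPKM in DMSO (log2 change -1.50 ± 0.044, limma adjusted p = 1.56e-12). EEF1A2, a tissue-restricted form of the tRNA carrier, had a log2 change of -0.83 and EEFSEC, the selenocysteine factor, of -0.70. Termination and recycling factors were higher in 5 of 6, with a median of 0.18 that was 0.01 under scaling to the non-mitochondrial sum. PELO, which rescues stalled ribosomes, averaged 11 ± 0.436 FPKM in HPC and 4.65 ± 0.125 FPKM in DMSO (SD, n = 5), a rise of 1.22 ± 0.032 (limma adjusted p = 7.06e-13), and the release factor ETF1 rose by 0.63. Among regulators of eIF4F, MKNK2, a kinase of eIF4E, rose by 0.67, and 2 of 8 tested were higher and 5 lower. DOHH, which completes hypusine on eIF5A, rose by 0.73, and MTIF2, the mitochondrial counterpart of an initiation factor, by 0.66. MTIF3, the other mitochondrial gene listed, was lower, at a log2 change of -0.21. Scanning and reinitiation helpers were higher in 2 and lower in 3 of 5, and poly(A)-binding proteins and their partners higher in 2 and lower in 1 of 4 tested.

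Libraries of 1 group did not always lie equally far from the other. HPC replicate 4 was the HPC library nearest to the DMSO mean for 23 of 46 tested members (50%), and for 32.2% of all tested genes. Without it, 24 members were again higher and 17 lower.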

How the data were processed

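The authors deposited 1 table of FPKM (fragments per kilobase of exon and per library size) for 16734 genes in 10 libraries. Per the labels' protocols, poly(A) RNA was selected, fragmented and sequenced as paired ends. Per the submitters' processing notes, the tools were STAR 2.7.7a, fastp 0.23.2 and edgeR (no version), none with its role or order, and the build was GRCh38.p13. Which counter, annotation or filter was used is not given in the sources used here.

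Values were whole multiples of 1 read for 15208 of 15208 genes above 0 in at least 3 libraries, within 0.0001 of a read, which gave the reads per library. The length behind the deposited FPKM was close to the exon length summed over all GENCODE 29 transcripts (median ratio 1 over 15183 genes, quartiles 0.999 and 1) and 2.31 times the merged exons (quartiles 1.61 and 3.27). A fold change within a gene is untouched by this apart from the filter and pseudocount, but levels of different genes are not comparable as deposited, so they were recomputed on merged exons, an alternative chosen after seeing the data. Merged exons average over isoforms. Exon overlaps with other genes are named for some members only, and further members have them.

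The 9150 genes that reached 1 FPKM in 5 or more libraries were tested as log2(FPKM + 0.1), a scale that understates changes of low genes, with limma 3.58.1 in R 4.3.3 (trend and robust, two-sided), Benjamini-Hochberg over all tested genes, threshold 0.05, HPC minus DMSO. The procedure was tested on simulated data. Ratios were compared with exact permutation tests in SciPy 1.17.1. Every member may be named; values per library were given for members past 1.5-fold and for a list of central factors, and outside the family for list members past 1.5-fold. The members, lists and tests were chosen with earlier results of these data known. Alternatives were other pseudocounts, filters, scalings, limma voom on the recovered reads, a replicate block and leaving out each library. Reads carry no molecular identifiers, so their numbers speak to counting error only.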

Additional observations from a re-analysis of the deposited data

Results flagged for a closer look

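Among 102 groups of 5 libraries (51 members in HPC and in DMSO), 9 held a library that stood apart from the other 4 by more than Dixon's critical value of 0.71 of the range; chance alone gives about 1 in 20. HPC replicate 4 stood apart for EIF3F at 6.87 FPKM (the others 6.5 to 6.57), for EIF4B at 22.6 FPKM (19.8 to 20.6) and for EIF4EBP2 at 15.1 FPKM (13.3 to 13.5). HPC replicate 5 stood apart for EIF4G1 at 6.67 FPKM (6.83 to 6.87). In DMSO, replicate 1 stood apart for EIF2A at 4.5 FPKM (4.91 to 5), replicate 3 for EIF3L at 15.8 FPKM (17.9 to 18.7) and replicate 5 for EIF3I at 64.4 FPKM (62.4 to 62.9). EIF4E1B was listed at 0.004 FPKM in HPC replicate 5 and 0.0048 FPKM in DMSO replicate 2, and at 0 in all other libraries.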

How the results depend on the processing

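Counts of members higher and lower in HPC were 24 and 17, and 24 to 25 and 17 when any 1 library was left out. Scaling to the non-mitochondrial sum turned 4 log2 changes, EIF2D to -0.09, EIF3B to -0.09, EIF3D to -0.00 and EIF4G1 to -0.12. It also took EIF2A (0.04) and EIF4A3 (0.04) out of the call. EIF3B missed the call after TPM rescaling too, at a log2 change of 0.05, and after quantile normalization, at one of 0.01. The non-mitochondrial scaling lowered the pathway genes called higher to 8. A filter of 5 FPKM lowered those called lower to 9, with fewer genes tested. Single-gene values kept direction and side of the threshold in 1156 cases, and in 13 a gene that had not passed did (EIF2D, EIF3C, EIF3CL, EIF4G1 or EIF4H). No filter gave 25 and 19 of 51 members, and merged-exon FPKM 24 and 18 of 47. Same-numbered HPC and DMSO libraries deviated together only weakly (r = -0.0593, 0.066, 0.199, 0.0165 and 0.136). HPC replicates 3 and 5 alone correlated best with their own number. Whether the numbers pair the samples cannot be settled from this, as the labels give neither culture day nor batch. With a replicate block the counts were again 24 and 17, and the 10 ratios kept their values, EIF1B:EIF1 -0.47, EIF4A2:EIF4A1 -0.50, EIF4G2:EIF4G1 0.46, EIF4G3:EIF4G1 0.28, EIF4E2:EIF4E 0.29, EIF4E3:EIF4E 1.04, EIF4EBP1:EIF4E 2.41, EIF4EBP2:EIF4E -0.35, EIF5A2:EIF5A 0.98 and EIF5:EIF1 -0.43, at an adjusted exact permutation p of 0.0625, the smallest that 5 pairs allow.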
